A study of Mus musculus with 60 samples.

Results

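Enterobacterales are the order of bacteria that holds Escherichia, Klebsiella, Serratia and their relatives. In a 16S rRNA gene survey of mice given nanoplastic by mouth they were scarce in stool and reached their highest shares in lung tissue. Members were defined by lineage: every sequence feature (a distinct amplicon sequence) whose deposited lineage names the order Enterobacterales and not the family Pasteurellaceae. That rule found 83 of 8574 features, or 83 of the 7922 features assigned to bacteria or archaea. Leaving out Pasteurellaceae removed 0 features, because the deposited lineages place that family in an order of its own. The members carried 97541 counts, 0.572% of prokaryote counts, under 15 genus labels of which 12 are named genera. The classifier's confidence for them ran from 0.738 to 1, with a median of 0.950, and 64 of the 83 reached 0.9.

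The study used 12 male mice, 6 exposed and 6 not exposed. The exposed mice were gavaged daily for 28 days with nanoparticles of PET, the plastic of drink bottles (polyethylene terephthalate), at 0.5 mg per day in 0.1 ml. Stool was sampled at week 1. At day 28 the samples were stool, oral swab, lung and colon, which gave 10 groups of 6 libraries and 60 libraries in all. The labels describe the control mice only as non-exposed, and tie no library to an animal, so no library is paired with another here and p-values measure the spread between libraries. Shares below are percentages of the prokaryote counts of a library, and a share is relative: it says nothing of how many bacterial cells a tissue held. PCR counts are not independent molecules, so limits given for a count of 0 and intervals of count ratios cover counting error only. Limits over a group pool libraries of unequal depth and are no limit for any single library.

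Most Enterobacterales grow with or without oxygen, and in the healthy gut, where strict anaerobes prevail, they are usually a small minority. Escherichia, Klebsiella, Citrobacter, Enterobacter and Proteus are typical gut inhabitants, and several cause opportunistic infections of the lung or urinary tract. Escherichia and Shigella are so alike in this gene that the classifier joins them under the label Escherichia-Shigella. Erwinia and Pantoea are best known from plants, Serratia from soil, water, plants and insects, and Izhakiella was described from plant-feeding insects and is a relative of Erwinia. The amplified stretch, variable regions 3 to 4, often cannot separate close genera of the family Enterobacteriaceae, and 24 features had no usable name at genus rank below that family.

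Library depth and extraction differed between sites. Totals were 16521 to 1083575 counts in stool, 59063 to 280575 in colon, 119454 to 428830 in oral swabs, 21912 to 326834 in lung control and 10543 to 133219 in lung PET. Stool and swabs were extracted with a soil kit and lung and colon with a blood and tissue kit. Kit and site therefore cannot be told apart where lung or colon is set against oral swab or stool. By their deposited names, 4 libraries belong to a second number series: stool day 28 control 6, stool day 28 PET 6, and lung control 5 and 6. In lung that series holds control libraries only, so series and arm are partly tied there. Genera common in laboratory reagents, such as Ralstonia and Bradyrhizobium, summed to a mean of 8.11% in lung control and 13.6% in lung PET, against 0.00646% to 2.19% in the groups of the other sites. Their part in the Enterobacterales counts was not tested.

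The 12 lung libraries carried 82.7% of all Enterobacterales counts, though only 6.41% of all counts came from lung. Oral swabs held 8.35% of the members' counts, stool 5.35% and colon 3.61%. In lung control the members' share was lowest at 0.484%, had a median of 1.81% and was highest at 10.4%, with a mean of 3.11% ± 3.68 (SD, n = 6). In lung PET it ran from 1.28% over a median of 3.67% to 44.2%, with a mean of 10.3% ± 16.7 (SD, n = 6). The high values come from lung control 1 and lung PET 3, which together held 59.8% of all member counts. No stool library (0 of 24) reached the lowest lung value, and 1 of 12 colon libraries (PET 5) and 1 of 12 oral swab libraries (control 5) did. The ranges of the lung arms overlapped, with 5 of the 6 PET libraries inside the range of the controls. Without lung PET 3 the PET mean was 3.54% ± 2.31, and without lung control 1 the control mean was 1.66% ± 1.03. Lung control 6 (0.484%) and lung control 5 (1.12%), of the second number series, held the lowest values of the control arm.

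**Figure D1:**
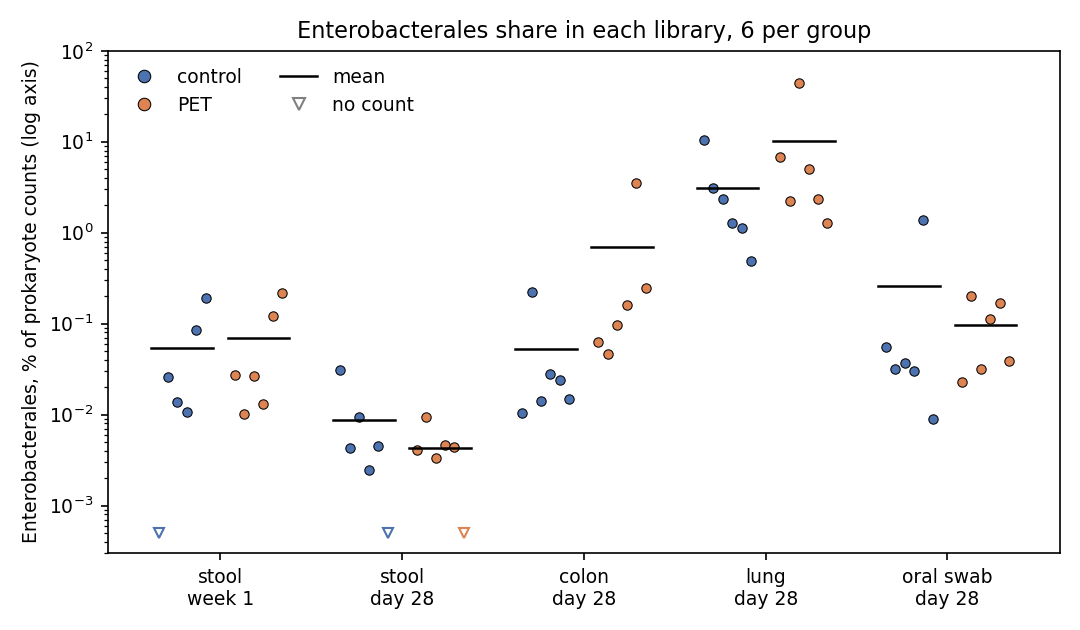
Enterobacterales share of prokaryote counts in each library, on a log axis, by sample type and arm. Points are libraries, bars are group means and open triangles are libraries with no count. The lung libraries sit at 0.484% to 44.2%, and the highest stool library is at 0.217%.

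Stool shares were small at both times, and their means were lower at day 28. At week 1 they ran from 0 to 0.191% in control (median 0.0201%, mean 0.0546% ± 0.0735, n = 6) and from 0.0103% to 0.217% in PET (median 0.0270%, mean 0.0691% ± 0.0833, n = 6). At day 28 they ran from 0 to 0.0311% in control (median 0.00436%, mean 0.00862% ± 0.0114) and from 0 to 0.00930% in PET (median 0.00423%, mean 0.00429% ± 0.00299). The week 1 means were 0.0272% without control 6 and 0.0395% without PET 6, and the day 28 control mean was 0.00413% without control 1. The summed share was described and not tested, and the arms overlapped at both times.

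At day 28 the medians of colon and oral swab lay between those of stool and lung. In colon the share had a median of 0.0196% in control (0.0103% to 0.222%, mean 0.0522% ± 0.0832) and of 0.128% in PET (0.0466% to 3.54%, mean 0.692% ± 1.40). The lowest PET colon library was above 5 of the 6 control colon libraries, and control 2 was the exception. In oral swabs the median was 0.0341% in control (0.00887% to 1.39%, mean 0.259% ± 0.554) and 0.0749% in PET (0.0226% to 0.201%, mean 0.0957% ± 0.0766). Without its highest library, the colon mean was 0.0184% in control (without control 2) and 0.122% ± 0.0809 in PET (without PET 5). In oral swabs the control mean was 0.0327% ± 0.0168 without control 5, and the PET mean moved less, to 0.0746%.

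Escherichia-Shigella made up the bulk of the order. It had 12 features and 83179 counts, 85.3% of the members' counts, and was detected in 57 of 60 libraries. It was the most abundant member genus in 50 of the 57 libraries that held any member, Izhakiella in 6 and Klebsiella in 1. In lung control its share ran from 0.190% over a median of 1.14% to 10.4%, and in lung PET from 1.09% over 2.86% to 42.9%. In colon it ran from 0.0103% to 0.199% in control (median 0.0193%) and from 0.0391% to 2.26% in PET (median 0.118%). In oral swabs the medians were 0.0236% in control and 0.0643% in PET, with the highest value, 1.37%, in control 5. In stool the medians were 0.0137% (control) and 0.0232% (PET) at week 1 and 0.00436% and 0.00403% at day 28. By median over both arms the order of sites at day 28 was lung (1.29%), colon (0.0478%), oral swab (0.0236%) and stool (0.00416%). Colon and oral swab overlapped widely. Lung and colon shared a kit that oral swab and stool did not, so kit and site cannot be told apart in this order.

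A single sequence accounted for most of it. Escherichia-Shigella feature 1 carried 69983 counts, 84.1% of its genus and 71.7% of all members, was detected at all 4 sites, and was present in every library that held any member. It was the most abundant of all prokaryote features in 3 libraries, lung control 1 (7.34% of counts), lung PET 1 (5.47%) and lung PET 3 (42.7%), and ranked no better than 216 in stool. The 3 libraries without it were stool week 1 control 1, the shallowest stool library with 16521 counts, and both day 28 stool libraries of the second number series. Those day 28 libraries had 324211 and 326098 counts, so that a count of 0 allows shares of up to 0.000925% and 0.000920%, below the lowest share, 0.00247%, in the 10 other day 28 stool libraries. Whether the number series plays a part was not tested.

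The other Escherichia-Shigella features appeared in few libraries. Feature 2 occurred only in lung control 1, with 9756 counts against 23590 of feature 1, a ratio of 0.414. Feature 3 occurred only in oral control 5, with 1452 counts against 3783 of feature 1, a ratio of 0.384. Feature 4 was found at 3 sites in 5 libraries: lung PET 1 (0.461%), colon PET 5 (0.460%), lung PET 4 (0.231%), lung control 4 (0.0439%) and stool week 1 PET 6 (0.00683%). Its ratio to feature 1 was not constant, at 0.256 in colon PET 5, 0.166 in stool week 1 PET 6 and 0.0408 to 0.0842 in the lung libraries.

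**Figure D2:**
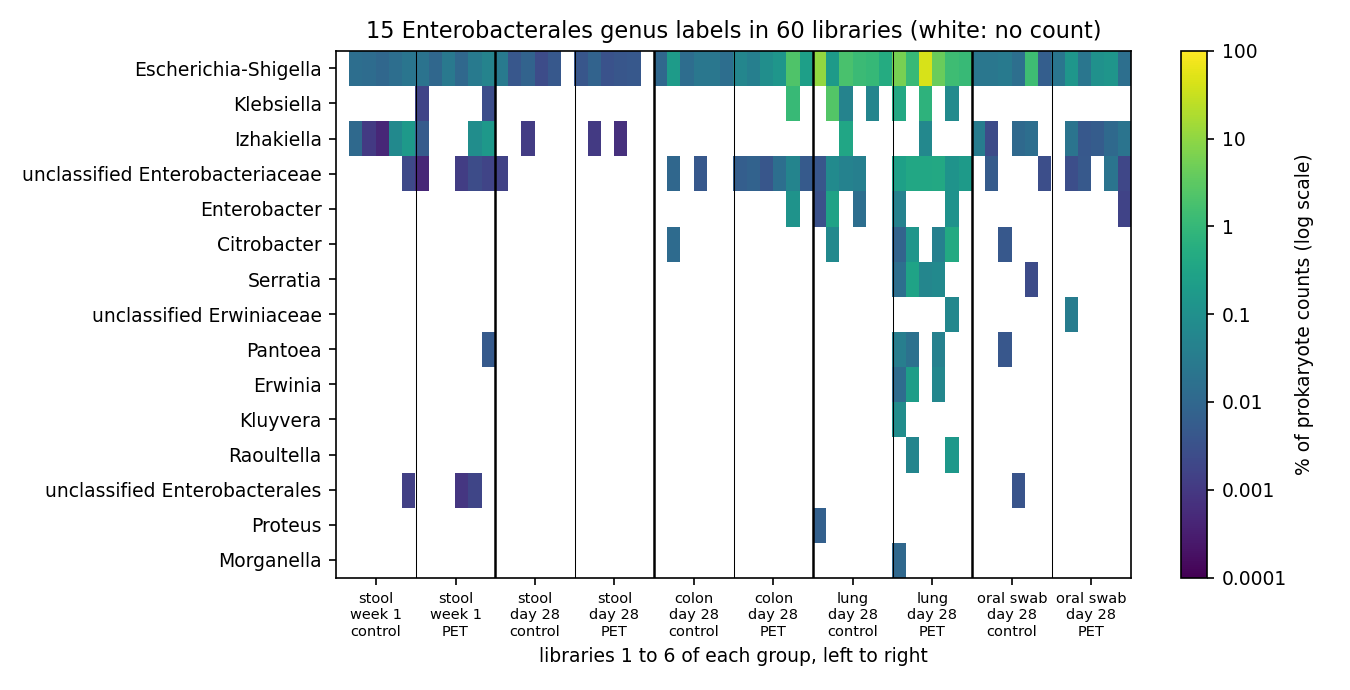
Share of each of the 15 genus labels in each of the 60 libraries, coloured on a log scale, with white for no count and thick lines between sample types. Escherichia-Shigella fills 57 columns, unclassified Enterobacteriaceae 30 and Izhakiella 22, and each other label fills 9 or fewer.

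The other genera listed as gut enterobacteria were found mainly in lung and in few libraries. Klebsiella, an opportunist of gut and airway, had 7080 counts in 9 libraries, and lung control 2 held 76.1% of them. It reached 2.45% in lung control 2, where it made up 79.8% of the members' counts, 1.11% in colon PET 5, 0.776% in lung PET 3 and 0.416% in lung PET 1. It stayed at or below 0.0757% in its 5 other libraries. No oral swab and no day 28 stool library had a count of Klebsiella, which allows shares of up to 8.2e-05% and 5.8e-05% over those groups. Klebsiella features 1 and 2 both had at least 10 counts in 4 libraries. Feature 2 was 0.747 of feature 1 in lung control 2, 0.759 in lung PET 3, 0.768 in colon PET 5 and 0.853 in lung PET 1, and the 95% Wilson-based intervals of these ratios overlap. Feature 3 was less regular, from 0.196 of feature 1 in lung PET 3 to 1.55 in lung control 5, where they had 34 and 22 counts.

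Enterobacter, a gut and environmental genus, had 814 counts in 7 libraries, 78.0% of them in lung control 2. Its share there was 0.288%, with 0.12% in colon PET 5 and 0.116% in lung PET 5. Its feature 2 was seen in those same 3 libraries, with 188, 67 and 23 counts. Citrobacter, which includes a natural mouse gut pathogen, had 352 counts in 7 libraries. Its share was 0.0686% in lung control 2, the only lung control library with it, and 0.00813%, 0.0420%, 0.144% and 0.449% in 4 lung PET libraries. The rarer genera listed as gut enterobacteria were each confined to lung. They were Kluyvera (0.0854% in lung PET 1), Raoultella (0.0550% and 0.157% in lung PET 2 and 5), Proteus (0.00685% in lung control 1) and Morganella (0.0106% in lung PET 1). The remaining labels had no genus name: Erwiniaceae (145 counts in oral PET 2 and lung PET 5) and Enterobacterales (28 counts in 3 week 1 stool libraries and oral control 4). In all, 8 of the 14 genera listed as gut enterobacteria were present, with 91612 counts.

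Features of Enterobacteriaceae with no usable name at genus rank were found in all 6 lung PET libraries. They numbered 24, with 1383 counts in 30 libraries. Among them feature 14, with 18 counts, carried the species label Metakosakonia massiliensis. In lung control the summed share of the 24 features ran from 0 over a median of 0.0214% to 0.0735% (mean 0.0270% ± 0.0304, n = 6). In lung PET it ran from 0.121% over 0.325% to 0.412% (mean 0.295% ± 0.126, n = 6). The arms did not overlap. Lung control 5 and 6, of the second number series, had 0 counts of this label, and the highest control value was in lung control 2. Of the 233 genera tested in lung, 2 (0.858%) were higher in PET without overlap, and this label was the only 1 of the 8 tested members among them. Feature 1 of this label was found in 5 of 6 lung PET libraries (0.0577%, 0.174%, 0.179%, 0.193% and 0.395%), in 0 of 6 lung control libraries, and otherwise only in oral PET 5 (25 counts). Its pooled lung PET share of 0.139% was at least 372-fold higher than the limit of 0.000373% that 3 counts over the 6 control libraries allow, and at least 296-fold higher without the library with most counts, lung PET 2. Feature 2 of this label was the only member besides Escherichia-Shigella feature 1 seen at all 4 sites, in 27 libraries, with 202 counts and never above 0.0453%.

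Serratia, Erwinia and Pantoea were found in lung only in the PET arm. Serratia had shares of 0.0154%, 0.0567%, 0.0706% and 0.306% in 4 of the 6 lung PET libraries. Erwinia had 0.0130%, 0.0611% and 0.213% in 3, and Pantoea 0.0172%, 0.0374% and 0.0439% in 3. These were lung PET 1, 2 and 4 for all 3 genera, with PET 3 in addition for Serratia. All 6 lung control libraries had 0 counts of each. How many other lung genera had 0 control counts and at least 3 PET libraries was not counted. The pattern may therefore not be particular to these 3. Against the limit that 3 counts over the pooled controls allow, the pooled lung PET share was at least 163-fold higher for Serratia. The bound was 101.3-fold for Erwinia and 68.1-fold for Pantoea. Without the library with most counts the bounds were 90-fold, 49.1-fold and 44.7-fold. They hold for the pools only, in which lung control 1 gave 321277 of 803322 control counts. Lung control 6 had 14464, too few to show the lowest of these PET shares reliably. Outside lung, Serratia was in oral control 5 (10 counts), Pantoea in stool week 1 PET 6 (53) and oral control 3 (15), and Erwinia nowhere. The libraries mostly held different sequences of a genus. Erwinia feature 1 was shared by lung PET 2 and 4, while Serratia feature 1 (0.244%) was in lung PET 2 alone and Pantoea feature 1 (0.0374%) in lung PET 1 alone.

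**Figure D3:**
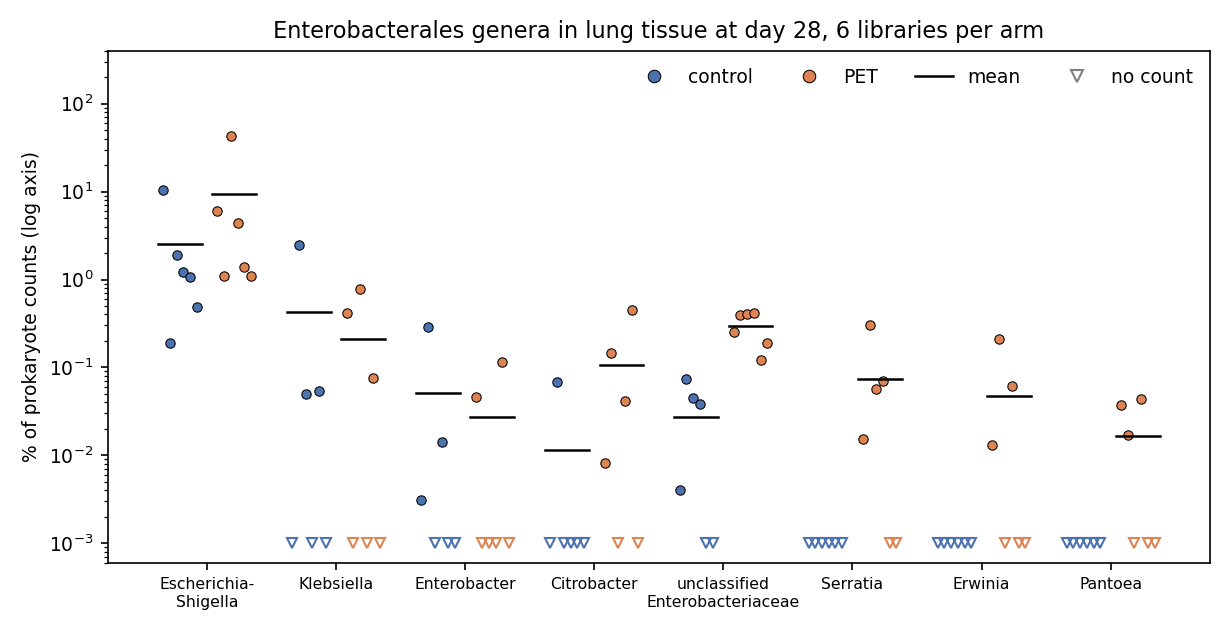
Share of 8 Enterobacterales genus labels in the lung libraries, on a log axis, with points for libraries, bars for means and open triangles for libraries with no count. Serratia, Erwinia and Pantoea show points in PET only, and unclassified Enterobacteriaceae lie at 0.121% to 0.412% in PET and at 0 to 0.0735% in control.

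By edgeR's quasi-likelihood test with Benjamini-Hochberg adjustment at 0.05, no member was called between the arms in lung, where 0 of 233 genera (0%) and 0 of 454 features (0%) passed. Serratia came nearest among the genera, with a log2 change of 8.55 ± 2.58 (SE, n = 6 per arm; adjusted p = 0.210), followed by Erwinia (7.82 ± 2.54) and Pantoea (6.84 ± 2.31) at the same adjusted p. These fitted values rest on controls at 0 and are no measure of size. The 3 genera passed the low-count filter only through the PET libraries, so their direction was fixed. Of all 233 genera, 20 had an unadjusted p under 0.05, these 3 among them. DESeq2 called Serratia (adjusted p = 0.0132), beside 1.72% of the genera tested (4 of 233). Among features it called feature 1 of unclassified Enterobacteriaceae (adjusted p = 0.00151, against 0.137 in edgeR), beside 0.661% of features (3 of 454), and no other member. That feature had 0 counts in lung control, so it too passed the filter through PET libraries alone and its direction was fixed. Limma on centred log ratios and an exact permutation test, both run on genera, called 0 members. With 6 libraries per arm, no genus could pass the permutation test after adjustment unless many genera reached its smallest possible p. Its 0 calls therefore say little.

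Escherichia-Shigella had a log2 change of 1.81 ± 1.28 in lung (adjusted p = 0.828). Its sign depended on a single library: without lung PET 3 it was -0.20. Unclassified Enterobacteriaceae had 3.23 ± 1.69 (adjusted p = 0.589), Citrobacter 1.63 ± 2.21, Klebsiella -1.27 ± 1.98 (0.83 with limma) and Enterobacter -2.10 ± 2.22. The levels of other taxa in these libraries are given for comparison. Pseudomonadales, another order with many water and soil bacteria, had 0.0239% to 0.338% in lung control and 0.399% to 1.37% in lung PET. Pasteurellaceae overlapped between the arms, at 0.106% to 3.59% in control and 0.151% to 3.70% in PET. So did genera of the mouse mouth, such as Streptococcus and Rodentibacter, at 0.557% to 3.16% and 0.322% to 5.01%. Plant chloroplast and mitochondrial sequences held 0 to 0.0376% of all counts in lung control and 0 to 1.45% in lung PET. Reagent-type genera ran from 0.903% to 29.1% in control and from 6.18% to 29.8% in PET, and skin genera from 0.0526% to 4.22% and from 0.433% to 5.12%. Strict gut anaerobe families had means of 47.2% ± 22.4 in control and 26.5% ± 11.1 in PET. Their part in the lung values of Enterobacterales was not tested.

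In colon, 22 genera (15.8% of those tested) and 11 of 468 features (2.35%) were called between the arms by edgeR, and 0 members among them. Of the called genera, 19 were higher in PET and 3 lower, and of the called features 5 were higher and 6 lower. The median log2 change of all genera tested was 0.63, and -0.12 with limma. A rise in PET colon in the edgeR fit was therefore not particular to the members. Only 2 member genera had enough counts to be tested, with 0 below an unadjusted p of 0.05. Escherichia-Shigella had a log2 change of 2.42 ± 1.35 (adjusted p = 0.362), and 1.04 without colon PET 5 (adjusted p = 0.907). Unclassified Enterobacteriaceae had 1.38 ± 2.05 (adjusted p = 0.890), with 0.92 without colon PET 5 and 3.49 without colon control 4. They were detected in 6 of 6 PET and 2 of 6 control colon libraries. With counts summed by family, Enterobacteriaceae were called as higher in PET colon (log2 change 3.17 ± 1.16, adjusted p = 0.0462), beside 24.6% of all families tested (17 of 69). That call was lost when any of the 12 libraries was left out (adjusted p from 0.0545 to 0.619), and the log2 change was 1.19 without colon PET 5. With no low-count filter Klebsiella was called, on the counts of colon PET 5 alone, beside 6.55% of genera (18 of 275). The median log2 change of all genera in that fit was 2.44. DESeq2 and limma called 0 member genera, as did the permutation test, which has the limit given for lung. Skin genera had means of 0.00112% in control and 0.140% in PET colon, and plant chloroplast and mitochondrial sequences 0 counts in control and a mean of 0.0877% in PET. Their part in the colon values was not tested.

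In oral swabs and stool no member was called between the arms. By edgeR 0 of 176 genera and 0 of 460 features were called in oral swabs (0% each), and 0% of genera and of features in stool at either time. Of the members there, 0 had an unadjusted p under 0.05, and DESeq2 and limma called 0. The permutation test, with the limit given for lung, also called 0. DESeq2 gave no p for Escherichia-Shigella in oral swabs. In oral swabs Escherichia-Shigella had a log2 change of -1.26 ± 1.26, and its sign depended on a single library and on the tool: it was 2.42 without oral control 5 and 0.58 with limma. Unclassified Enterobacteriaceae had 1.08 ± 1.78. In stool Escherichia-Shigella had 0.65 ± 0.78 at week 1 (0.083 without PET 6) and -0.96 ± 1.30 at day 28 (-0.051 without control 1). With SEs of this size, changes of several fold in either direction were not detectable.

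Izhakiella made up most of the highest Enterobacterales shares in week 1 stool, while Escherichia-Shigella led in the other week 1 stool libraries with members. Izhakiella had 3934 counts in 22 libraries, 88% of the counts in its feature 1. At week 1 its stool share ran from 0 to 0.166% in control (median 0.00615%) and from 0 to 0.160% in PET (median 0.00269%). Libraries 5 and 6 of both arms were the high ones, with 0.0707%, 0.166%, 0.0868% and 0.160%, and they held 97.3% of the week 1 stool counts of this genus. In them Izhakiella made up 72% to 87% of the members' counts. At day 28 only 13 counts remained, in 3 of 12 stool libraries, and no value was above 0.00114%. Izhakiella was also found in 9 of 12 oral swabs (highest 0.0327%) and in 2 lung libraries, lung control 3 (0.358%) and lung PET 3 (0.0620%). Colon had 0 counts, which allows a share of up to 0.000174% over its 12 libraries. Feature 2 was 0.0713 to 0.201 of feature 1 in the 4 high stool libraries and 1.02 of it in lung control 3. Plant chloroplast and mitochondrial sequences reached 0.223% in stool week 1 control 6 and 0.0720% in stool week 1 PET 6, the highest of their groups. Their part in the Izhakiella values was not tested.

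Between the stool times no genus was called by edgeR: 0 of 145 (0%) in control, 0 of 145 (0%) in PET and 0 of 145 (0%) for the difference between the arms. Of the 4 member genera tested, unclassified Enterobacterales had 0 counts in day 28 stool, and unclassified Enterobacteriaceae had 0 in day 28 PET stool, so no count of directions is given. Izhakiella had a log2 change of -7.83 ± 2.36 in control (adjusted p = 0.137) and -6.78 ± 2.27 in PET (adjusted p = 0.114). Without libraries 5 and 6 of week 1 these became -4.17 (adjusted p = 0.355) and -2.15 (adjusted p = 0.602). Escherichia-Shigella had -0.83 ± 1.11 in control (adjusted p = 0.782) and -2.47 ± 1.17 in PET (adjusted p = 0.165). In PET stool its lowest week 1 share, 0.0103%, was above its highest day 28 share, 0.00824%, and such a drop without overlap was seen in 7 of 145 genera (4.83%). In control stool the times overlapped. The difference between these changes was not past the threshold (adjusted p = 0.685). DESeq2 called Izhakiella as lower in both arms (adjusted p = 0.0237 and 0.0442) and Escherichia-Shigella in PET (adjusted p = 0.0275), beside 2.76% of genera in control (4 of 145) and 8.97% in PET (13 of 145). It called 0 members for the difference between the arms. Limma called 0 members in any of these comparisons.

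**Figure D4:**
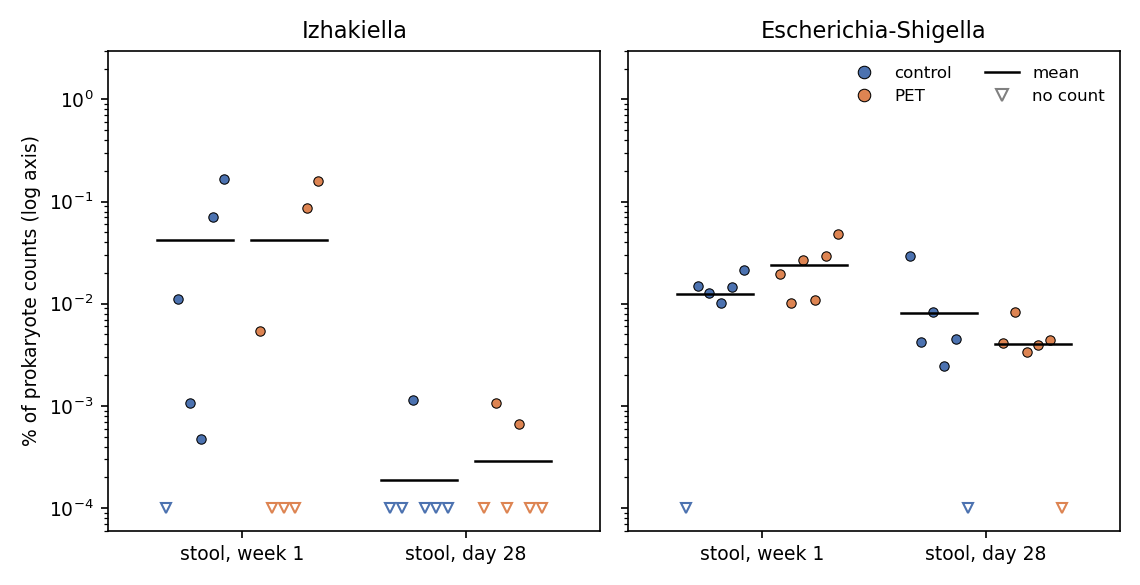
Izhakiella and Escherichia-Shigella shares in stool at week 1 and day 28, on a log axis, with points for libraries, bars for means and open triangles for libraries with no count. Izhakiella lies at 0.0707% to 0.166% in 4 week 1 libraries and at or below 0.00114% in every day 28 library.

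The sites at day 28 were compared in fits that pooled both arms with the arm as a term. Libraries of the same mouse could not be matched. These fits, and those between stool times, therefore treat all libraries as independent. The fitted scale (TMM) moved all genera strongly between sites, with median log2 differences of 6.20 for oral swab over stool, -2.32 for colon over lung, 1.95 for colon over stool and 1.41 for lung over oral swab. Values scaled by library totals, whose medians were 3.15, -4.22, 0.24 and 3.88, are therefore given beside them. Oral swab and stool shared a kit. All 3 member genera tested there were higher in oral swab, as were 57.5% of the 200 genera tested. Escherichia-Shigella had a log2 difference of 8.60 ± 1.19 (adjusted p = 2.2e-06; 4.56 by library totals), Izhakiella 9.12 ± 1.53 (adjusted p = 2.4e-05; 5.24) and unclassified Enterobacteriaceae 7.54 ± 1.68 (adjusted p = 0.000409; 4.44).

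Lung and colon also shared a kit. Escherichia-Shigella, Serratia, Erwinia and Pantoea were called there as higher in lung, as were 32.2% of 267 genera. Colon over lung, Escherichia-Shigella had a log2 difference of -3.35 ± 0.91 (adjusted p = 0.00418; -5.04 by library totals). It was no longer called without lung control 1 and lung PET 3 (-1.61, adjusted p = 0.167). Serratia (adjusted p = 0.0209), Erwinia (0.0254) and Pantoea (0.0262) had 0 counts in all 12 colon libraries, so they passed the filter through lung alone and their direction was fixed. Their pooled lung shares were at least 93.1-fold, 57.8-fold and 38.9-fold higher than 3 counts over colon allow, all of it from PET libraries. All 4 calls were lost with limma on centred log ratios, where Pantoea turned to 0.18 and Escherichia-Shigella had an adjusted p of 0.0810. DESeq2 called Escherichia-Shigella alone. Without lung PET 1, 2 or 4, Erwinia and Pantoea were detected in too few libraries to be tested.

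Colon over stool and lung over oral swab compare different kits, and kit and site cannot be told apart there. Escherichia-Shigella was higher in colon than in stool by a log2 difference of 5.78 ± 1.55 (adjusted p = 0.00812; 4.71 by library totals) and unclassified Enterobacteriaceae by 6.75 ± 2.20 (adjusted p = 0.0175; 5.51), beside 28.3% of 173 genera. The latter call was lost without colon control 4 (adjusted p = 0.0740). Izhakiella, the third member tested, was not called. In lung over oral swab Klebsiella, Escherichia-Shigella and Erwinia were called as higher in lung, as were 20.4% of 289 genera. Klebsiella and Erwinia had 0 counts in oral swabs, which fixed their direction. Klebsiella was at least 7138-fold higher in lung than 3 counts over the 12 swabs allow, and at least 1438-fold without lung control 2 (adjusted p = 0.000960). Escherichia-Shigella had 2.70 ± 0.97 (adjusted p = 0.0312; 5.19 by library totals), and lost the call when any of 7 libraries was left out or lung control 1 and lung PET 3 together (adjusted p = 0.40). Erwinia (adjusted p = 0.0381) lost it when any of the 6 oral PET libraries was left out.

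Most member features were seen once. Of the 83 features, 61 (73.5%) were detected in 1 library, against 73.8% of all prokaryote features. By site, 67 occurred at 1 site (47 of them in lung), 9 at 2, 5 at 3 and 2 at all 4. The 5 at 3 sites were Izhakiella feature 1, Klebsiella features 2 and 3, Escherichia-Shigella feature 4 and feature 11 of unclassified Enterobacteriaceae. Lung held 61 member features, oral swab 18, stool 17 and colon 12. Within lung, 12 features (19.7%) were in both arms, 35 (57.4%) in PET only and 14 (22.95%) in control only. Of all 3607 prokaryote features in lung, 15.9% were in both arms, 34.7% in PET only and 49.4% in control only. Of the member features, 28 of the 35 and 13 of the 14 came from a single library, and lung PET 1 alone held 13 features seen nowhere else.

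A lung control library held 1 to 14 member features (mean 5.83 ± 4.49, n = 6) and a lung PET library 3 to 22 (mean 11.7 ± 6.25, n = 6). Counted at the lowest lung total of 10083 prokaryote counts, the means were 5.13 ± 4.17 and 10.8 ± 5.14. The PET libraries had the lower totals, with a median of 45970 counts against 114839, and the arms overlapped. Means elsewhere were 1.17 to 4.67 features per library. The highest count outside lung was 14 in stool week 1 PET 6, which was also the deepest library, with 1083575 counts.

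**Figure D5:**
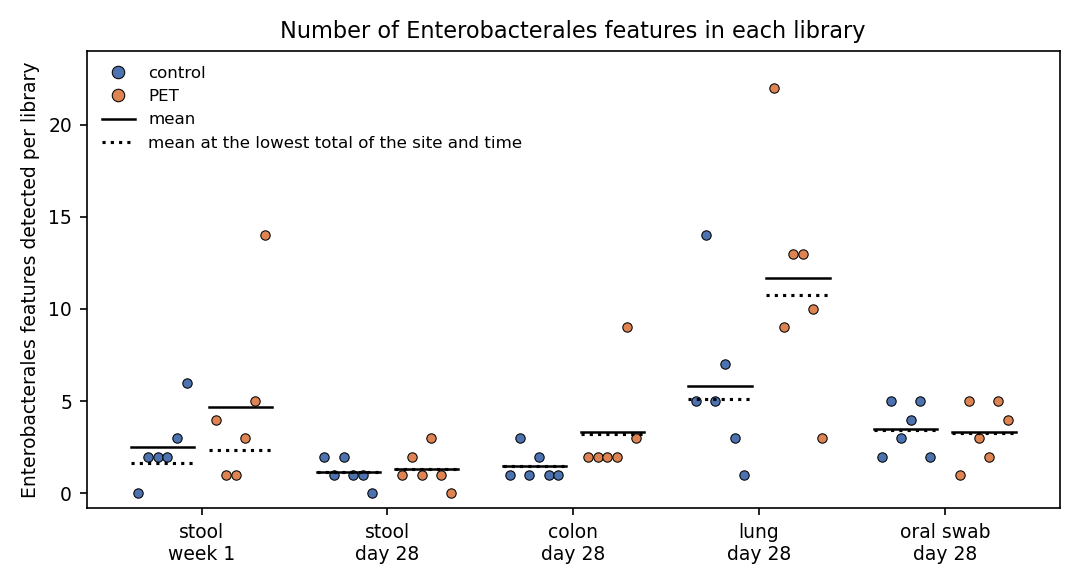
Number of Enterobacterales features detected in each library, by sample type and arm. Points are libraries, solid bars group means and dotted bars means at the lowest total of that site and time. Lung PET libraries hold 3 to 22 features and lung control libraries 1 to 14.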

How the data were processed

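Amplicons of 16S variable regions 3 to 4 were sequenced in 60 libraries. The deposited table holds raw counts per sequence feature and, per the file headers, was built from a biom file. The deposited taxonomy gives each lineage a confidence, a fraction from 0 to 1. Bowtie2, cutadapt and the GRCm39 build stand in the submitters' processing notes without version or role. The denoiser and classifier were not given in the sources used here. Features without a lineage (619), plant organelles and eukaryotes were left out, which kept 99.3% of counts. Counts were summed by genus and tested with edgeR 4.0.16 (TMM, quasi-likelihood, Benjamini-Hochberg over all genera or features, at least 10 counts and 3 libraries). SEs are the log2 change divided by the root of F. DESeq2 1.42.0, limma 3.58.1 and a two-sided exact permutation test were alternatives. The edgeR fits between arms were run on simulated counts with large changes planted in the more abundant taxa. That run does not show how the fits perform for sparse taxa. Every member genus is accounted for, the 8 with the largest mean share by library. Features are described where they are among the 15 of largest mean share, past the threshold or at 3 sites. Members and lists were chosen with earlier results of these data known.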

Additional observations from a re-analysis of the deposited data

Results flagged for a closer look

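Within each group of 6 libraries the highest and lowest share were compared with the rest by Dixon's gap ratio, for the order as a whole and for the 8 leading genera where at least 4 libraries had counts. Of 30 such groups, 16 held a library far from the others. Chance flags about 1 in 20 groups of normally distributed values, while these shares are bounded at 0. The groups are also not independent, since Escherichia-Shigella makes up most of the order.

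In lung the distant libraries were PET 3, at 44.2% for the order and 42.9% for Escherichia-Shigella, and control 1, at 10.4% for both. Citrobacter stood apart in lung PET 5 (0.449%) and Serratia in lung PET 2 (0.306%). In colon they were PET 5, at 3.54% for the order, 2.26% for Escherichia-Shigella and 0.0519% for unclassified Enterobacteriaceae, and control 2, at 0.222% and 0.199%. In oral swabs control 5 had 1.39% and 1.37%, and PET 5 had 0.0200% of unclassified Enterobacteriaceae. In day 28 stool control 1 had 0.0311% and 0.0296%. The lists of other taxa had high values in only some of the same libraries. Reagent-type genera had the highest values of their groups in colon control 2 (5.15%) and stool day 28 control 1 (1.31%). The same held for oral control 5 (1.15%) and oral PET 5 (2.70%). In lung and in PET colon their highest values were in lung control 3 (29.1%), lung PET 5 (29.8%) and colon PET 4 (3.82%). They were not highest in lung control 1, lung PET 3 or colon PET 5. The part of reagent-type genera was not tested.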

How the results depend on the processing

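Mean shares moved by over 1.5 times without the highest library in 8 of the 10 groups, as given with the shares above. Of the members between arms, edgeR called 0 genera at each site. In colon 1 was called with no filter (6.55% of all genera called) and 1 at family level (24.6% of families). In lung DESeq2 called 1 genus (1.72%) and 1 feature (0.661%), both without a count in lung control, which fixed their direction. Between stool times DESeq2 called 1 member in control (2.76%) and 2 in PET (8.97%), against 0. For oral swab over stool no filter gave 9 against 3 (79.6%). For colon over lung DESeq2 gave 1 (28.8%), a stricter detection filter 1 (42.7%) and limma 0 (15.7%), against 4, and Pantoea turned to 0.18 with limma. For colon over stool no filter gave 5 (64.2%), the stricter filter 1 (40.7%) and families 1 (53.8%), against 2. For lung over oral swab library totals gave 6 (59.9%), the stricter filter 0 (28.7%) and families 1 (39.2%), against 3.

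Leaving out 1 library at a time gave 2 to 6 members for colon over lung (fewest without lung PET 1, 2 or 4), 1 to 2 for colon over stool (fewest without colon control 4) and 1 to 5 for lung over oral swab (fewest without oral PET 1, 3 or 5, most without oral control 3). The log2 change of Escherichia-Shigella in lung then ran from -0.20 (without lung PET 3) to 3.84 (without lung control 1). In oral swabs it ran from -2.73 (without oral PET 4) to 2.42 (without oral control 5), and was 0.58 with limma and 0.49 in the permutation test, against -1.26. The removals of lung control 1 with lung PET 3, of week 1 stool libraries 5 and 6, and of colon PET 5 or oral control 5 were chosen after seeing the data. The removal of the second number series was planned for the fits and added later for the shares. No paired analysis was possible because the labels tie no library to an animal and the replicate numbers only follow the order of deposit. Low lung totals, down to 10083 prokaryote counts in lung PET 6, limit what a count of 0 shows there.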
